A study of Bos taurus with 92 samples.

Results

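PLAU, TSPAN12, FZD4, FILIP1L and SGPL1 are 5 genes whose transcripts lay high in bovine blastocysts fertilised in vitro. They were picked by gene symbol after the levels of these same samples had been seen. Their height in the in vitro fertilised embryos is therefore the basis of the choice, and it is described here without a test. The 5 genes had 6 of the 8208 probes of the array, of which FILIP1L had 2, and they stand among 4398 named genes that passed a filter on missing values. All 6 probes passed that filter.

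The series measured single blastocysts of Bos taurus on a custom 2-colour cDNA microarray. Artificial insemination (AI) gave 14 embryos and in vitro fertilisation (IVF) 15. A further 15 were made by nuclear transfer (NT), in which the nucleus of a somatic cell is placed into an oocyte, and 2 samples came from the donor cells. The labels give no treatment or genetic change apart from the way the embryos were made, and every sample was hybridised with the same reference RNA to 2 arrays, once in each dye orientation. A prefix H marks 3 of the AI embryos, and the NT embryos carry the prefix 2_ in 8 cases and 3_ in 7. Breed, parents, culture medium, embryo age, donor cell type and hybridisation date are not given in the sources used here. A batch that differed between the kinds of embryo and the kind itself cannot be told apart. Nothing says which embryos shared parents or a culture, and p-values measure the spread between these embryos only.

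A level below is the log2 ratio of a sample to the reference, averaged over the 2 dye orientations, with the median probe of each array set at 0. The direction of the deposited ratio, Cy5 to Cy3, is likely but was inferred from the data, and with the other direction every sign, rank from the highest and higher or lower count given here would turn. Levels of 1 probe can be compared between samples, but not with those of another probe, since each also depends on the amount of that transcript in the reference. In a whole embryo, fewer cells of a type and less RNA per cell cannot be told apart. Values after ± are the SD over samples for a level and the standard error (SE) of the model for a difference.

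Over the 92 arrays, the median r between the 2 spots of a probe was 0.793. The 2 arrays of a sample, turned to the same direction, correlated with r from 0.548 to 0.764 in embryos and with 0.248 and 0.325 in the 2 donor cell samples. Markers of the trophectoderm, the outer layer of the blastocyst, were higher in embryos than in donor cells for 9 of 15 measured genes in AI, 9 in NT and 11 in IVF embryos. TFAP2A of this list was lower in all 3 kinds. Markers of fibroblasts were lower in embryos of each kind for 5 of 7, while THY1 was higher in AI and NT embryos than in donor cells. Of the defining genes of the inner cell mass, POU5F1, NANOG and SOX2 were not measured, and neither were CDX2 and IFNT of the trophectoderm.

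PLAU encodes urokinase, a secreted protease that turns plasminogen into plasmin at the cell surface, where its receptor PLAUR holds it, and the system is known for matrix turnover. FZD4 is a seven-pass receptor for Wnt ligands and for norrin, and TSPAN12, a tetraspanin, is an auxiliary membrane protein that enhances norrin signalling through FZD4 and LRP5 to β-catenin. FILIP1L is an intracellular protein related to the filamin A interacting protein FILIP1 and has been linked to cell motility. SGPL1 is the lyase of the endoplasmic reticulum that degrades sphingosine 1-phosphate and so ends the sphingolipid pathway. The last 2 are thus signalling or cytoskeletal genes and not proteins of the cell surface.

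PLAU stood above the array median in most IVF embryos and below it in nearly all others. Its level ran from -0.63 to 1.39 with a median of 0.52 in IVF embryos, from -2.45 to -0.47 with a median of -1.17 in AI embryos and from -3.00 to 0.51 with a median of -1.13 in NT embryos. The donor cell samples gave -1.24 and -1.33. Of the 15 IVF embryos, 13 lay above the highest AI embryo and 8 above the highest NT embryo, while 3 of 14 AI and 4 of 15 NT embryos reached the lowest IVF level. The means were 0.52 ± 0.60 in IVF, -1.13 ± 0.54 in AI and -1.16 ± 1.16 in NT embryos (SD, n = 15, 14 and 15). IVF embryos thus lay 1.65 ± 0.29 above AI embryos on the log2 scale, or 3.14-fold, and 1.68 ± 0.28 above NT embryos, or 3.21-fold. AI, NT and donor cell levels lay within each other's spread, and the spread was widest among NT embryos.

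FZD4, the Wnt and norrin receptor, was highest in IVF embryos, but with wide overlap. The level ran from -0.24 to 2.51 with a median of 1.44 in IVF embryos, from -2.08 to 1.74 with a median of -0.33 in AI embryos and from -0.49 to 1.76 with a median of 0.61 in NT embryos. The 2 donor cell samples lay far apart, at 1.23 and -1.29. Only 5 of 15 IVF embryos lay above the highest AI embryo and 5 above the highest NT embryo, and 7 of 14 AI and 11 of 15 NT embryos reached the lowest IVF level. The highest AI level, of embryo 15, includes a Cy3 spot at 3.87 beside one at 0.85, while its Cy5 spots gave 1.12 and 1.13. The lowest, of embryo H3, includes a Cy5 spot at -5.89 beside one at -0.775. Both ends of the AI range, and the count above the highest AI embryo, thus depend on single discordant spots. The means were 1.38 ± 0.90 in IVF, -0.38 ± 1.01 in AI and 0.56 ± 0.73 in NT embryos. The difference of IVF from AI embryos was 1.75 ± 0.33, or 3.37-fold, and that from NT embryos 0.82 ± 0.32, or 1.77-fold. Against NT embryos the word raised thus describes a shift of the mean and not a separation of embryos.

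TSPAN12, the partner of FZD4 in norrin signalling, was low in most AI and NT embryos and varied most among AI embryos. Its level ran from -1.79 to 1.00 with a median of -0.22 in IVF embryos, from -3.24 to 1.27 with a median of -2.37 in AI embryos and from -3.09 to -0.55 with a median of -2.32 in NT embryos. The donor cells gave -2.83 and -2.52. Most AI embryos lay near the donor cell level, but AI embryo 17 at 1.27 exceeded every IVF embryo and AI embryo H1 lay at 0.43. As a result, 0 of 15 IVF embryos stood above the highest AI embryo, against 10 of 15 above the highest NT embryo. The means were -0.27 ± 0.95 in IVF, -1.82 ± 1.36 in AI and -1.96 ± 0.81 in NT embryos. IVF embryos lay 1.56 ± 0.37 above AI and 1.69 ± 0.37 above NT embryos, or 2.94-fold and 3.23-fold.

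SGPL1, the sphingosine 1-phosphate lyase, stood above the array median in all embryos and varied least after IVF. NT embryo 3_9, at 0.22, lay below both donor cell samples. The level ran from 2.69 to 4.09 with a median of 3.71 in IVF embryos, from 0.98 to 3.21 with a median of 2.22 in AI embryos and from 0.22 to 3.58 with a median of 2.89 in NT embryos. The donor cells gave 0.82 and 1.41. Of 15 IVF embryos, 14 lay above the highest AI embryo and 10 above the highest NT embryo, whereas 11 of 15 NT embryos reached the lowest IVF level and 1 of 14 AI embryos did. That lowest level was of IVF embryo 19 alone. The next lowest, IVF embryo 18 at 3.23, lay above every AI embryo, so the last 2 counts depend on 1 embryo. The means were 3.65 ± 0.37 in IVF, 2.09 ± 0.63 in AI and 2.70 ± 0.81 in NT embryos, in the order IVF, NT, AI and donor cells. IVF embryos lay 1.56 ± 0.22 above AI and 0.95 ± 0.22 above NT embryos, or 2.95-fold and 1.93-fold.

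FILIP1L had 2 probes, which did not give the same picture. On the first probe the level ran from -2.02 to -0.56 with a median of -1.27 in 14 IVF embryos, from -4.71 to -2.40 with a median of -3.41 in 14 AI embryos and from -3.91 to -1.04 with a median of -2.42 in 15 NT embryos. The donor cells lay highest, at -0.26 and -0.66. IVF and AI embryos did not overlap, with 14 of 14 IVF embryos above the highest AI embryo, and 6 of 14 lay above the highest NT embryo. The means of this probe were -1.19 ± 0.48 in IVF (SD, n = 14), -3.34 ± 0.69 in AI and -2.52 ± 0.81 in NT embryos. The IVF embryos lay 2.15 ± 0.25 above AI and 1.33 ± 0.24 above NT embryos, or 4.44-fold and 2.52-fold. Of the 5 genes, FILIP1L alone had both donor cell samples above the IVF mean.

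The second FILIP1L probe had no value in 6 of 14 AI, 3 of 15 IVF and 5 of 15 NT embryos. Where measured, it averaged 0.76 ± 0.73 in 12 IVF, 0.08 ± 0.34 in 8 AI and 0.64 ± 0.78 in 10 NT embryos, and 0.51 and 0.50 in donor cells. The 2 close donor cell values average opposed orientations, with means of -1.50 in Cy5 and 2.51 in Cy3. IVF embryos lay 0.68 ± 0.29 above AI and 0.12 ± 0.27 above NT embryos on this probe, and 5 of 8 AI and 9 of 10 NT embryos fell within the IVF range. Its 2 spots correlated with r = 0.20 over 47 arrays, and the 2 dye orientations of a sample with r = -0.42 over 32 samples. On the first probe these values were 0.97 over 91 arrays and 0.92 over 45 samples, and for the other 4 genes the orientations correlated with r from 0.87 to 0.96. The second probe therefore repeats neither between spots nor between orientations. The gene value of the fit is the mean of whichever probes had a value, so it mixes the levels of both, and FILIP1L is given below by probe as well.

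**Figure D1:**
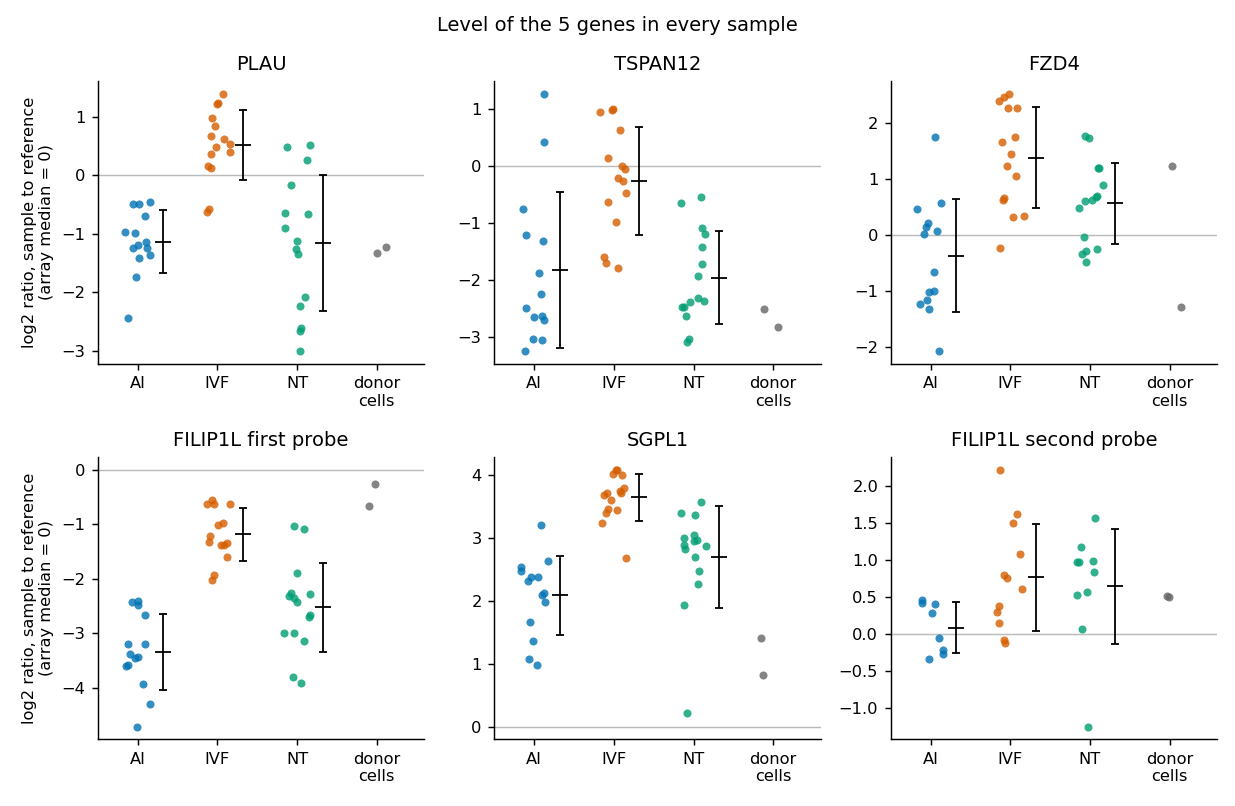
Each point is 1 sample, plotted as its log2 ratio to the reference (array median = 0) for the 5 genes and the second FILIP1L probe, by kind of embryo and for donor cells. Black bars give the mean and SD of the embryos. In the first FILIP1L panel the 14 IVF embryos lie above all AI embryos, while in the TSPAN12 panel AI embryo 17 at 1.27 lies above every IVF embryo.

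**Figure D2:**
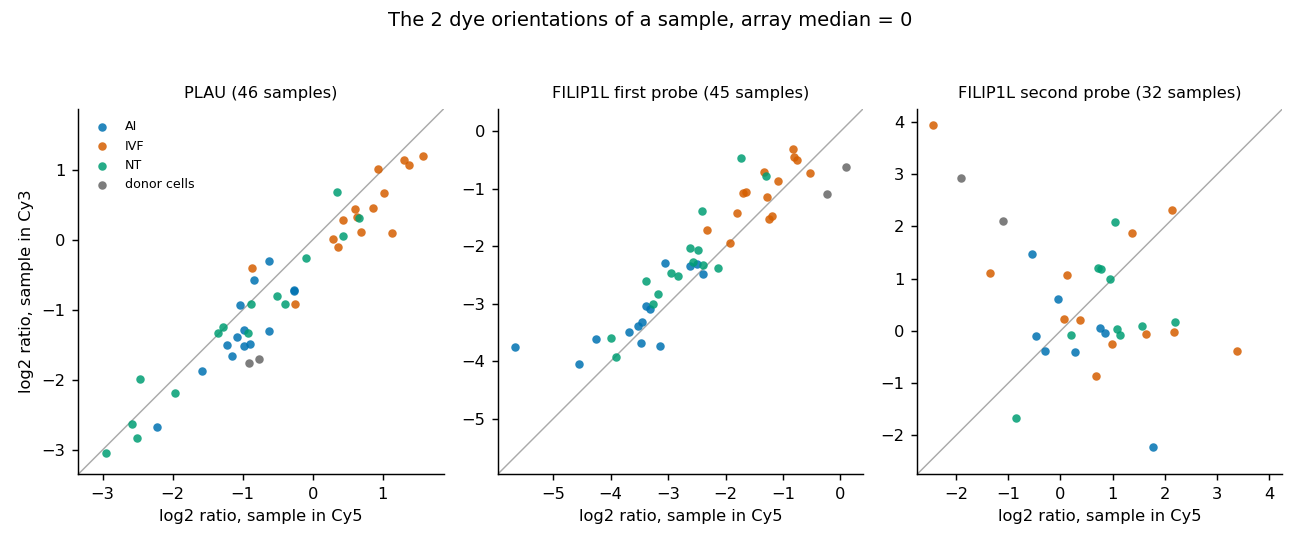
Each point is 1 sample, with its log2 ratio on the array where it carried Cy5 on the x axis and where it carried Cy3 on the y axis, for PLAU and the 2 FILIP1L probes. The line marks equal values. PLAU (r = 0.96) and the first FILIP1L probe (r = 0.92) follow the line, and the second FILIP1L probe (r = -0.42) does not.

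Among all 4398 genes, 29.5% passed an adjusted p of 0.05 between IVF and AI embryos (limma, Benjamini-Hochberg), 13.9% higher and 15.6% lower in IVF. Between IVF and NT embryos 24.2% passed, 10.3% higher and 13.9% lower in IVF. The rule used these contrasts, so nothing is read from the standing of the 5 genes in them. By size of the IVF minus AI difference they held the ranks 2 (FILIP1L), 4 (FZD4), 6 (PLAU), 9 (SGPL1) and 10 (TSPAN12) from the highest. By IVF minus NT they held 4 (TSPAN12), 5 (PLAU), 38 (FILIP1L), 48 (SGPL1) and 75 (FZD4). With 1 probe per gene FILIP1L stood at 15 and FZD4 at 95 in the latter. With arrays as deposited, not centred, the differences from NT embryos shrank to 1.30 for PLAU, 1.31 for TSPAN12, 0.60 for the gene value of FILIP1L (1.03 when centred), 0.56 for SGPL1 and 0.44 for FZD4. There the median gene itself lay at -0.38.

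Counted embryo by embryo, single AI and NT embryos reached the IVF range for some of the genes but never for all 5. Of 14 AI embryos, 3 reached the lowest IVF level for none of the genes, 7 for 1, 3 for 2 and 1 for 3. That 1 was AI embryo 17, with TSPAN12 at 1.27, SGPL1 at 3.21 and FZD4 at 0.57. Of 15 NT embryos, 1 reached it for none, 3 for 1, 4 for 2, 4 for 3 and 3 for 4. In NT embryos 2_1, 2_11 and 3_2 the 4 genes included TSPAN12, FZD4 and SGPL1. These counts follow from the choice of genes and were not tested.

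The genes differed in how much they varied within a kind. TSPAN12 had an SD of 1.36 in AI embryos, at percentile 99.7 of the SDs of all genes, of 0.95 in IVF embryos (percentile 97.4) and of 0.81 in NT embryos (percentile 92.4). FZD4 stood at percentiles 96.7, 95.9 and 87.8 in the same order, where the AI value includes the discordant spots of embryos 15 and H3 named above. PLAU varied most in NT embryos (SD 1.16, percentile 99.1) and SGPL1 least in IVF embryos (SD 0.37, percentile 30.9). The first FILIP1L probe stood at percentile 53.7 in IVF embryos and at 92.4 in NT embryos.

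NT and AI embryos were compared next. This contrast holds no IVF embryo, but the AI and NT levels entered the differences by which the genes were chosen, and genes chosen for low AI levels tend towards a positive NT minus AI difference. The p-values are those of the fit over all genes, are not independent of the choice and are given as a description. Of the 5 genes FILIP1L alone was called, higher in NT embryos. Over all genes 8.07% were called. FILIP1L differed by 0.95 ± 0.30 in the gene fit (15 NT against 14 AI embryos, limma adjusted p = 0.0406). On its first probe the difference was 0.82 ± 0.24 (adjusted p = 0.0298 over all probes), with 13 of 15 NT embryos above the AI mean. On the second it was 0.56 ± 0.30 (adjusted p = 0.263). The gene difference exceeds that of either probe, since the second probe, with its higher levels, enters only where measured. That probe had no value in 6 of 14 AI and 5 of 15 NT embryos, so the size of the gene difference partly reflects missing values. The gene call ended under 8 of the alternatives, with adjusted p from 0.0584 without the AI embryos labelled H to 0.316 with the sample in Cy5 alone.

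FZD4 and SGPL1 had NT means between those of AI and IVF embryos, but their differences from AI embryos did not pass the test. FZD4 differed by 0.93 ± 0.33 (limma adjusted p = 0.0644, 14 of 15 NT embryos above the AI mean). SGPL1 differed by 0.61 ± 0.22 (adjusted p = 0.0775, 13 of 15). Both passed with arrays as deposited, at 1.35 (adjusted p = 0.00267) and 1.03 (adjusted p = 0.000453), where the median gene lay 0.44 higher in NT embryos and 1978 genes were called higher against 19 lower. SGPL1 passed also with the 8 NT embryos labelled 2_ alone (0.93, adjusted p = 0.00776) and with the sample in Cy3 alone (0.84, adjusted p = 0.0409). PLAU at -0.029 ± 0.29 (adjusted p = 0.972) and TSPAN12 at -0.13 ± 0.37 (adjusted p = 0.881) had differences smaller than their SE, and 8 and 6 of 15 NT embryos lay above the AI mean.

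Against donor cells, FILIP1L was lower in AI embryos and SGPL1 higher in NT embryos. The AI and NT levels entered the choice here too, so that these p-values are likewise not independent of it. Between AI embryos and donor cells 37% of all genes were called, and 1 of the 5, FILIP1L, at -2.37 ± 0.61 (14 embryos against 2 samples, limma adjusted p = 0.00162). The first FILIP1L probe gave -2.88 ± 0.49 and the second -0.42 ± 0.50, and the gene call was lost with the sample in Cy5 alone (-1.07, adjusted p = 0.335). On those arrays the first probe averaged -3.50 in AI embryos and -0.07 in donor cells, and the second 0.44 and -1.50. The first probe thus kept its difference there, while the second turned the other way. Between NT embryos and donor cells 35.4% were called, and again 1 of the 5, SGPL1, at 1.59 ± 0.46 (adjusted p = 0.00484). Without donor cell sample 8 this call ended (1.29, adjusted p = 0.142). The gene value of FILIP1L differed by -1.43 ± 0.61 and did not pass (limma adjusted p = 0.063), whereas its first probe gave -2.06 ± 0.49 (adjusted p = 0.000837 over all probes).

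The other members gave no call against donor cells. SGPL1 was 0.97 ± 0.46 higher in AI embryos (limma adjusted p = 0.0926), and TSPAN12 differed by 0.85 ± 0.76 in AI and 0.71 ± 0.76 in NT embryos. PLAU differed by 0.15 ± 0.59 in AI and by 0.12 ± 0.59 in NT embryos. For FZD4 the 2 donor cell samples, at 1.23 and -1.29, decided the sign: AI minus donor cells was -0.35 ± 0.66 with both and 0.91 without sample 8, and NT minus donor cells was 0.58 ± 0.66 with both and -0.68 without sample 9. IVF minus donor cells, which the choice of genes shapes and which was not tested for them, was 2.53 for SGPL1, 2.40 for TSPAN12, 1.80 for PLAU, 1.40 for FZD4 and -0.73 for the first FILIP1L probe.

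The unexplained label sets did not separate the 5 genes. Between the NT embryos labelled 2_ and 3_, 0 of 4398 genes were called (0% by limma after adjustment, 351 at an unadjusted p under 0.05). SGPL1 was 0.68 ± 0.30 higher in the 2_ embryos (8 against 7, limma p = 0.029, adjusted p = 0.568), where NT embryo 3_9 had the lowest level of all NT embryos, 0.22. TSPAN12 differed by 0.66 ± 0.52 (adjusted p = 0.778). Between the 3 AI embryos labelled H and the other 11, 0.933% of genes were called and 0 of the 5, with differences from -0.62 ± 0.57 for FZD4 to 0.22 ± 0.52 for PLAU.

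Whether the 5 genes varied together from embryo to embryo was tested within each kind, which the difference between kinds does not enter. Of 30 relations, that is 10 pairs in 3 kinds, 0 passed after Benjamini-Hochberg adjustment (permutation tests, 2-sided, 100000 resamples), by Pearson's r or by Spearman's rho. At an unadjusted p under 0.05 for r there were 3 in AI, 0 in IVF and 1 in NT embryos. With arrays as deposited there were 1, 4 and 0, again with 0 after adjustment (lowest adjusted p = 0.0612), so that which kind held more of them turned with the centring. FILIP1L entered by its first probe. The median r was 0.31 in AI embryos, 0.088 in IVF embryos and 0.12 in NT embryos, and over all pairs of genes the middle 90% of r ran from -0.48 to 0.49, from -0.49 to 0.50 and from -0.46 to 0.47.

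With centred arrays the highest values joined PLAU, TSPAN12 and SGPL1 in AI embryos. As deposited the highest were FZD4 and SGPL1 (r = 0.71) and PLAU and SGPL1 (r = 0.68), both in IVF embryos, and with FILIP1L as the mean of both probes FZD4 and FILIP1L had 0.64 in AI embryos. PLAU and TSPAN12 had r = 0.62 (rho = 0.64, permutation p = 0.0204, adjusted p = 0.344), and r = 0.63 without the 2 embryos farthest from the PLAU median. TSPAN12 and SGPL1 had r = 0.60 (rho = 0.57, permutation p = 0.0236, adjusted p = 0.344), which fell to 0.32 without the 2 embryos farthest from the TSPAN12 median. PLAU and SGPL1 had r = 0.57 (rho = 0.44, permutation p = 0.0344, adjusted p = 0.344) and likewise 0.32. The last 2 relations thus rest in part on 2 embryos each. The genes of an embryo share their arrays and amplification. With 1 gene read from the Cy5 arrays and the other from the Cy3 arrays the 3 values were 0.56, 0.53 and 0.53.

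In NT embryos TSPAN12 and SGPL1 had r = 0.50 (rho = 0.44, permutation p = 0.0475, adjusted p = 0.356), with 0.28 in the embryos labelled 2_ and 0.64 in those labelled 3_, and 0.54 without the 2 farthest from the TSPAN12 median. NT embryo 3_9, low in both genes (SGPL1 at 0.22, TSPAN12 at -3.04), remained in the last 2 values, and r without it was not computed. In IVF embryos the same pair had r = 0.038 (permutation p = 0.895, adjusted p = 0.959), and 0.33 without the 2 farthest. TSPAN12 and FZD4, the 2 partners in norrin signalling, had r = 0.16 in AI, 0.012 in IVF and 0.13 in NT embryos, at percentiles 69.7, 51.3 and 66.3 of all gene pairs. Without the 2 embryos farthest from the TSPAN12 median these became 0.032, 0.42 and 0.19. The lowest value was that of FILIP1L and SGPL1 in IVF embryos, r = -0.47 (rho = -0.47, permutation p = 0.086, adjusted p = 0.43, 14 embryos), and -0.23 without the 2 farthest. Whether r differed between kinds was not tested.

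**Figure D3:**
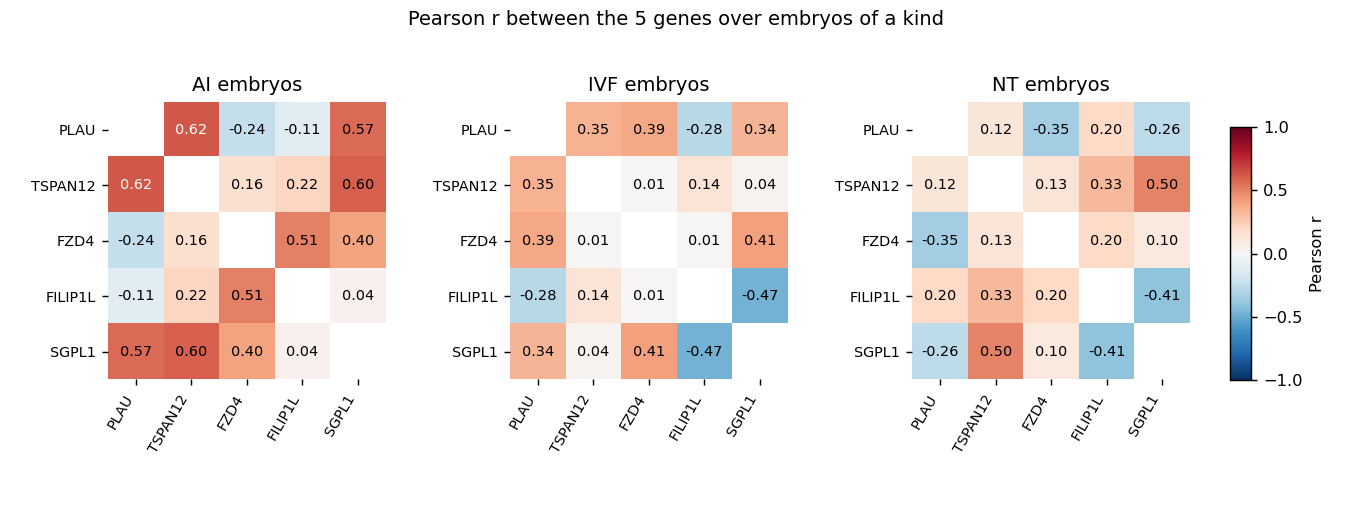
Pearson r between the 5 genes over the 14 AI, 15 IVF and 15 NT embryos, with FILIP1L by its first probe, coloured from -1 (blue) to 1 (red). The values range from -0.24 to 0.62 in AI, from -0.47 to 0.41 in IVF and from -0.41 to 0.50 in NT embryos.

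Likeness of pattern was measured as the mean over the 3 kinds of Pearson's r within a kind, over 4247 genes with at least 12 values in each kind, and the highest of so many values are given as a description. The genes most like PLAU were SMARCE1 (mean r 0.72), CFD (0.68) and PPL (0.61). SMARCE1 kept 0.69 in AI, 0.74 in IVF and 0.72 in NT embryos. Most like TSPAN12 were STAU2 (0.55), ANKRD12 (0.55) and TMEM39A (0.51), and most like FZD4 were DSCAML1, FDX1 and MAGI3 (0.49, 0.49 and 0.48). FILIP1L stood closest to SPG7 (0.60), STX12 (0.55) and GTF2H2 (0.55), and SGPL1 to PITPNM1, NAPRT and TSPAN14 (each 0.57).

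The 5 genes were not each other's nearest. The closest ranks between members were 82 for SGPL1 by its mean r with TSPAN12, and 86 for TSPAN12 by its mean r with PLAU. The genes nearest to PLAU were also higher in IVF embryos, a contrast that the likeness within kinds did not use. Over all genes 13.9% were called higher in IVF against AI and 10.3% against NT embryos. For these and the genes named next, other settings are not given. As deposited the median gene lay at -0.38 against NT embryos, so that differences from NT embryos hold relative to the array median only. SMARCE1 lay 0.95 ± 0.20 above AI and 1.02 ± 0.20 above NT embryos (limma adjusted p = 0.000291 and 0.000122), and PPL lay 0.53 ± 0.13 and 0.90 ± 0.12 above them (adjusted p = 0.00116 and 4.57e-07). CFD gave 0.36 ± 0.10 and 0.39 ± 0.09 (adjusted p = 0.0035 and 0.00149). Of the genes nearest to SGPL1, PITPNM1 was higher in IVF than in AI (0.59 ± 0.14, adjusted p = 0.00146) and NT embryos (0.37 ± 0.14, adjusted p = 0.048), NAPRT was higher than in NT embryos, and TSPAN14 passed in neither. Of those nearest to TSPAN12, ANKRD12 and TMEM39A were higher than in AI embryos and STAU2 higher than in NT embryos. The 3 genes nearest to FZD4 and the 3 nearest to FILIP1L did not pass in either contrast, with differences between -0.11 and 0.38.

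The other genes of the pathways around the 5 were called in both directions. The counts of each list are read against the shares of all genes called, given above, and against the medians of all genes, 0.026 for IVF minus AI and 0.00048 for IVF minus NT. Both contrasts share the IVF embryos. With arrays as deposited the split of all genes against NT embryos went from 454 higher and 612 lower to 45 and 1710, so that directions against NT embryos hold relative to the array median only. Over the 5 lists, calls against NT embryos went from 8 higher and 10 lower to 0 and 38, and those against AI embryos from 11 higher and 13 lower to 6 and 3.

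Of 38 genes of plasminogen activation, 15 were measured. Against AI embryos 2 were higher and 2 lower in IVF (list median 0.081), and against NT embryos 4 were higher and 0 lower (median 0.13). As deposited, 0 were higher and 3 lower than in NT embryos. PLAUR, the receptor of urokinase, was at 0.24 ± 0.09 against AI (limma adjusted p = 0.0535) and at 0.056 ± 0.09 against NT embryos (adjusted p = 0.713). MET, the receptor of hepatocyte growth factor, was higher in IVF than in AI (0.39 ± 0.09, adjusted p = 0.000854) and NT embryos (0.42 ± 0.09, adjusted p = 0.000355). TIMP3, an inhibitor of matrix metalloproteinases, was higher by 0.51 ± 0.13 and 0.49 ± 0.12. The matriptase ST14 was higher than in NT embryos by 0.43 ± 0.14. The plasminogen-binding annexin ANXA2 was lower than in AI embryos (-0.32 ± 0.11). The integrin ITGB5 lay between, at -0.32 ± 0.09 against AI and 0.32 ± 0.09 against NT embryos. Calls against NT embryos ended as deposited for all 4 genes, that of ITGB5 also with Cy3 alone. Those of ITGB5 and ANXA2 against AI embryos ended as deposited and with Cy3 alone, that of MET against AI embryos with Cy5 alone, and both of TIMP3 with 1 probe per gene.

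Of 71 genes of Wnt and frizzled signalling, 19 were measured, among them neither norrin nor LRP5. Against AI embryos 3 were higher and 1 lower (list median 0.15), and against NT embryos 0 were higher and 1 lower (median 0.0038), with 8 lower as deposited. CTNND1, the p120 catenin that binds cadherins, was higher than in AI embryos by 0.86 ± 0.22 (limma adjusted p = 0.00208, 14 of 15 IVF embryos above the AI mean). DKK3, a dickkopf-related secreted protein, and the kinase CSNK1E were higher by 0.35 ± 0.10 and 0.24 ± 0.09. The repressor TCF7L1 was lower than in AI (-0.27 ± 0.10) and NT embryos (-0.32 ± 0.10). Of these, CTNND1 kept its call under the scalings, single dye orientations and the choice of 1 probe per gene. DKK3 lost it as deposited, with quantile normalisation, with scaling of the spread and with Cy3 alone, CSNK1E as deposited and with Cy3 alone, and TCF7L1 with Cy5 alone and with 1 probe per gene, against AI embryos also as deposited and with Cy3 alone.

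Of 32 tetraspanins other than TSPAN12, 11 were measured, and none was higher in IVF than in AI embryos while 3 were lower (list median -0.16). Against NT embryos 1 was higher and 3 lower (median 0.049), and as deposited 0 and 5. CD81 was intermediate, at -0.69 ± 0.21 against AI (limma adjusted p = 0.00919) and 0.70 ± 0.20 against NT embryos (adjusted p = 0.00862), with means of 0.50 in AI, -0.19 in IVF and -0.90 in NT embryos. CD9, which acts in egg and sperm fusion, was lower than in both (-0.35 ± 0.13 and -0.43 ± 0.12). TSPAN33 was lower than in AI embryos (-0.39 ± 0.12), and TSPAN17 and TSPAN31 were lower than in NT embryos (-0.53 ± 0.13 and -0.51 ± 0.14). The 3 calls against AI embryos and that of CD81 against NT embryos ended as deposited, those of CD81 and TSPAN33 against AI embryos also with Cy3 alone, and both of CD9 with Cy5 alone, against AI embryos also with 1 probe per gene.

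Of 63 genes of sphingolipid metabolism, 18 were measured. Against AI embryos 4 were higher and 1 lower (list median 0.052), or 1 and 2 with Cy5 alone, and against NT embryos 1 was higher and 2 lower (median -0.062), with 0 and 9 as deposited. PLPP1, a phosphatase of lipid phosphates, was higher than in AI embryos by 1.44 ± 0.18 (limma adjusted p = 3.35e-08, 15 of 15 IVF embryos above the AI mean). SPTLC2, a catalytic subunit of serine palmitoyltransferase, was higher by 0.78 ± 0.18 (adjusted p = 0.000898), while SPTSSA, a small subunit of the same enzyme, was lower than in AI (-1.02 ± 0.18, adjusted p = 1.9e-05) and NT embryos (-1.03 ± 0.18, adjusted p = 1.9e-05), in 15 of 15 IVF embryos each. Against NT embryos PLPP1 (0.27 ± 0.17, limma adjusted p = 0.27) and SPTLC2 (0.23 ± 0.18, adjusted p = 0.381) did not pass. Both were also called higher in NT than in AI embryos. The aldehyde dehydrogenase ALDH3A2, which oxidises the product of the SGPL1 step, was higher than in AI embryos by 0.35 ± 0.11. SPHK2, a kinase that makes sphingosine 1-phosphate, was higher than in NT embryos by 0.47 ± 0.14, and the ceramide synthase CERS2 was lower (-0.46 ± 0.16). The calls of ALDH3A2 and SPHK2 ended as deposited and with either dye alone, that of SPHK2 also with 1 probe per gene, and those of SPTLC2 and CERS2 with Cy5 alone.

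Of 34 genes of filamins and actin cross-linking, 21 were measured, and more were lower than higher in IVF embryos. Against AI embryos 2 were higher and 6 lower (list median -0.091), or 1 and 2 as deposited. Against NT embryos 2 were higher and 4 lower (median -0.13), with 0 and 13 as deposited. FLNA, filamin A itself, was lower than in AI (-0.37 ± 0.13, limma adjusted p = 0.0294) and NT embryos (-0.47 ± 0.13, adjusted p = 0.00598). The α-actinin ACTN1 was lower than in AI embryos (-0.96 ± 0.14, adjusted p = 9.11e-07). The myosin light chain MYL6 (-0.66 ± 0.10 and -0.44 ± 0.10) and the tropomyosin TPM4 (-0.45 ± 0.11 and -0.48 ± 0.10) were lower than in both, and the membrane linker moesin, MSN, was lower than in NT embryos (-0.60 ± 0.14). PDLIM1, which binds α-actinin, went the other way (0.66 ± 0.11 and 0.58 ± 0.11, adjusted p = 1.54e-05 and 0.000122). The calls of TPM4 against AI and PDLIM1 against NT embryos ended as deposited, that of MYL6 against NT embryos with Cy5 alone, and both of FLNA with Cy3 alone, against AI embryos also as deposited.

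**Figure D4:**
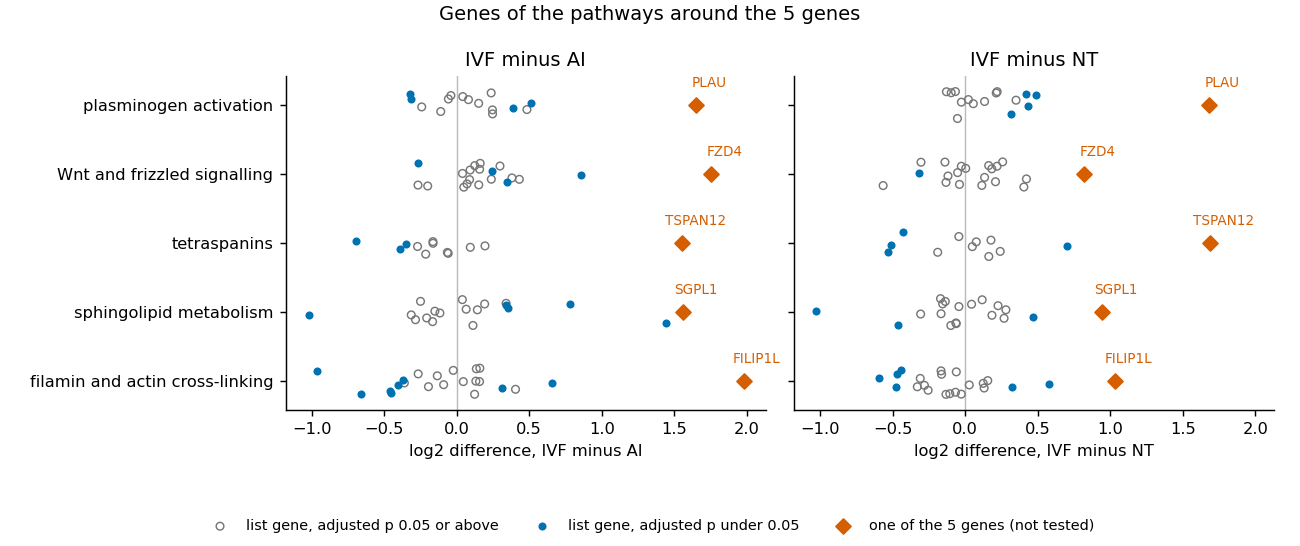
Each circle is 1 measured gene of a pathway list, placed by its log2 difference between IVF and AI embryos (left) or IVF and NT embryos (right). Filled circles passed an adjusted p of 0.05 in limma, and diamonds mark the 5 genes, which were chosen for these differences. Of the filamin and actin genes called against AI embryos, 6 were lower and 2 higher, while the list median was -0.091.

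Markers of other cell types moved in part with the kinds of embryo, and their part in the levels of the 5 genes was not tested. Each list is given by its mean per sample relative to the mean of each gene over all samples. The trophectoderm list ran from -0.22 to 0.48 (median 0.29) in IVF, from -0.085 to 0.65 (median 0.17) in AI and from -0.79 to 0.24 (median -0.11) in NT embryos. Of its 15 genes, 6 were higher and 1 lower in IVF than in NT embryos, and 2 were higher and 1 lower than in AI embryos. As deposited, 3 were higher and 2 lower than in NT embryos (median difference -0.067, against 0.32 when centred). Over all genes 10.3% were higher and 13.9% lower against NT embryos, and 13.9% and 15.6% against AI embryos. Of 4 measured genes of cumulus and granulosa cells, HSD3B1 and CYP11A1 were higher in IVF than in AI embryos, CYP11A1 not as deposited, with list means from -0.18 to 0.80 in IVF and from -0.61 to 0.49 in AI embryos. The fibroblast list ran from -0.69 to 0.10 in IVF, from -0.50 to 0.019 in AI and from -0.39 to 0.13 in NT embryos, against 3.12 and 3.16 in donor cells.

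The remaining marker lists held few measured genes. Of 3 genes of the inner cell mass, SALL4 was higher and STAT3 lower in IVF than in AI embryos, and of 6 of the primitive endoderm LAMB1 was higher and FN1 lower. The same calls held against NT embryos, where KLF4 and SPARC were also lower. Both lists were highest in donor cells, at 0.78 and 1.12 for the inner cell mass and 0.73 and 0.86 for the primitive endoderm. The genes measured thus do not set these lineages apart from donor cells. MUC1, the only measured gene of oviduct and uterine epithelium, was higher in IVF than in AI embryos by 0.68, and neither of 2 blood genes passed. A ratio to a reference has no true zero, so that absence of a marker cannot be read from these values.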

How the data were processed

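Per the labels' protocols, RNA was isolated with Trizol and amplified linearly, the reference in fewer rounds, and amino-allyl cDNA was coupled to Cy5 or Cy3. The authors deposited 1 log2 ratio of both dyes for each spot. Scanner, background correction, normalisation and the ratio's direction are not given in the sources used here, and without intensities dim spots could not be examined.

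The sign was reversed on arrays where the sample carried Cy3, 2657 cells at the fill value 16.61 were set to missing, and each array was centred on its median. The 2 spots of a probe and then both orientations, each required, were averaged. Probes were kept if both donor cell samples and no less than 50% of AI, of IVF and of NT embryos had a value (7992 of 8208), and probes of a gene were averaged, each contributing where it had a value. Group means over all 46 samples were fitted with limma 3.58.1 in R 4.3.3, with Benjamini-Hochberg adjustment over 4398 genes and a threshold of 0.05. The code was tested on simulated data.

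Members and lists were chosen with earlier results of these data known. The genes named are the 5, the 3 most like each, and up to 4 called genes of smallest p per list and contrast. PLAUR and FLNA were added for their roles, and the marker genes were named after their values were seen. The number of arrays limits the precision. Alternatives were other scalings, 1 dye orientation, 1 probe per gene, another filter and fewer samples.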

Additional observations from a re-analysis of the deposited data

Results flagged for a closer look

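A single sample far from the others of its label set stood out in 2 of the 13 sets of 4 to 10 samples tested with Dixon's ratio at the 95% level. At that level chance alone is meant to mark about 5% of sets. Among the NT embryos labelled 3_, embryo 3_9 had an SGPL1 level of 0.223, and the next lowest of the 7 was 1.94. Among the NT embryos labelled 2_ with a value on the second FILIP1L probe, embryo 2_8 lay at -1.26, and the next lowest of the 6 was 0.53.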

How the results depend on the processing

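With 1 of the 5 genes called between NT and AI embryos (FILIP1L), the count was 3 with arrays as deposited and 0 with quantile normalisation, scaling to equal median absolute deviation, the sample in Cy5 alone, only the kinds compared, the NT embryos labelled 3_ alone, or without the AI embryos labelled H. It stayed at 1 with Cy3 alone and with the NT embryos labelled 2_ alone, but there SGPL1 was called and FILIP1L was not. Between AI embryos and donor cells the count went from 1 to 0 with Cy5 alone, by the gene value of FILIP1L, which mixes its 2 probes. Between NT embryos and donor cells it went from 1 to 2 with Cy3 alone, with 1 probe per gene and in the fit to all probes, the last chosen after seeing the data, and ran from 0 to 1 when either donor cell sample was left out. Genes called between IVF and AI embryos went from 1299 to 698 as deposited. The numbers that AI and IVF embryos share did not pair them (r of deviations -0.060 to 0.086, 1 of 7 closest to its own number), and with the number as a replicate block 458 genes were called, against 690 for the same embryos without the block. Between IVF and NT embryos 1066 became 1755 as deposited and 697 with the NT embryos labelled 3_ alone. Between NT and AI embryos 355 became 1997 as deposited, 551 with Cy5 alone, 213 with Cy3 alone, and 167 and 178 with the NT embryos labelled 2_ and 3_ alone. The cause was not tested, except that the last 2 use fewer samples.

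The differences that turned in sign were not called in either direction. For NT minus AI, PLAU went from -0.029 to 0.38 as deposited, 0.054 with Cy3 alone and 0.019 without the AI embryos labelled H, and TSPAN12 from -0.13 to 0.28 as deposited, 0.093 with Cy5 alone and 0.17 with the NT embryos labelled 2_ alone. For AI minus donor cells, PLAU became -0.052 as deposited and -0.15 with Cy5 alone, and FZD4 ran from -1.61 to 0.91 when 1 donor cell sample was left out (0.91 without sample 8). For NT minus donor cells, PLAU became -0.26 with Cy5 alone and FZD4 ran from -0.68 to 1.84 when 1 was left out (-0.68 without sample 9). The 42 calls in the pathway lists are 24 against AI and 18 against NT embryos, with a gene called in both counted in each. As deposited they were 9 and 38, so that their sum hides opposite moves. Called correlations stayed at 0 of 30 under the alternatives run for them.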

Other observations

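The level of a gene was also set against the deposited median of its embryo, the value that centring removes, in 15 relations (5 genes in 3 kinds). None passed after adjustment (permutation tests, 100000 resamples). The strongest was SGPL1 in NT embryos, with r = -0.65 (rho = -0.37, permutation p = 0.0146, adjusted p = 0.219), followed by FILIP1L in NT embryos, with r = 0.53 (rho = 0.45, permutation p = 0.0397, adjusted p = 0.298). In AI embryos r ran from -0.43 for TSPAN12 to 0.16 for FILIP1L, and in IVF embryos from -0.40 for SGPL1 to 0.23 for FZD4.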
